A study of Homo sapiens with 12 samples.

Results

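The nuclear-encoded subunits of the mitochondrial respiratory chain and ATP synthase were followed in H460 and A549 cells, with and without ISP-I. Members were taken by gene name, as every gene whose symbol starts with NDUFA, NDUFB, NDUFC, NDUFS or NDUFV and a number, with SDHA to SDHD, CYC1 and the symbols starting with UQCR, COX4 to COX8 or ATP5, leaving out assembly factors and the inhibitor ATP5IF1. The rule used no measured value. It found 89 of 19973 listed genes, of which 36 belong to complex I, 4 to complex II, 10 to complex III, 19 to complex IV and 18 to complex V. The last 2 are readthrough genes, ATP5MF-PTCD1 and NDUFC2-KCTD14, which join a subunit gene to its neighbour and were placed in no complex. NDUFA4 and NDUFA4L2 carry complex I names but were placed in complex IV, where the NDUFA4 protein is nowadays counted. The files use the older symbols ATP5MD and ATP5MPL for ATP5MK and ATP5MJ.

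The respiratory chain sits in the inner mitochondrial membrane. Complex I takes electrons from NADH and complex II from succinate, ubiquinone carries them to complex III, cytochrome c carries them on to complex IV, and complex IV passes them to oxygen. Complexes I, III and IV pump protons, and complex V, the ATP synthase, uses the proton gradient to make ATP. Most subunits are encoded in the nucleus and imported, while the remaining ones are encoded in mitochondrial DNA. Complex II is wholly nuclear-encoded.

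H460 is a human line from a large cell lung carcinoma and A549 a line from a lung adenocarcinoma, both non-small cell lung carcinoma (NSCLC) lines and both labelled wild type (WT). The paper states that both lines carry homozygous mutations that inactivate KEAP1. Control cells were left non-treated, and the others received 10 µM ISP-I over 48 h. RNA was sequenced from 3 libraries in each of the 4 groups, 12 in all. ISP-I is isovalerylspiramycin I, a macrolide and a component of the antibiotic carrimycin. The comparison asks how the mRNAs of the chain differ between treated and control cells of each line, and whether that change differs between the lines. Nothing in the labels ties the libraries to separate cultures, so the p-values measure the spread between these libraries, which may be technical. In RNA from whole cultures, fewer cells with a transcript and less of it per cell cannot be told apart.

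The libraries held 14225849 to 17874422 reads on genes. The epithelial keratins KRT8, KRT18 and KRT19 were expressed in all 4 groups, at group means of 45.6 to 649.9 FPKM. EPCAM and CDH1 were at or near 0 in H460, with CDH1 without a read in the 3 H460 control libraries. Of the non-epithelial markers, CD3E was at 0 in every library and PTPRC, PECAM1 and DCN stayed at or near 0, while COL3A1, a fibrillar collagen, was at 8.60 FPKM in H460 controls and 2.25 FPKM in treated H460. The 6 non-epithelial markers summed to 9.20 to 10.4 FPKM in H460 controls, 2.72 to 3.26 in treated H460, and 0.818 to 1.13 in A549. Their part in the results was not tested.

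Promoter sequences of 3 subunits are shown first, because many genes of the chain hold motifs of the factors that are known to drive mitochondrial gene expression. The windows are RefSeq sequence of build GRCh38.p14, read on the strand of the gene, and capitals mark matches to the motif of NRF1 (GCGCANGCG) or of ETS factors such as GABP (CCGGAAG), on either strand. NDUFS4 had the highest change in both lines among complex I subunits that averaged 5 FPKM or more, while ATP5F1C and SDHD are examples with matches, chosen after their values were seen. Each window ends at most 30 bases inside the gene model that the files list.
NDUFS4, chr5:53560389-53560638, plus strand: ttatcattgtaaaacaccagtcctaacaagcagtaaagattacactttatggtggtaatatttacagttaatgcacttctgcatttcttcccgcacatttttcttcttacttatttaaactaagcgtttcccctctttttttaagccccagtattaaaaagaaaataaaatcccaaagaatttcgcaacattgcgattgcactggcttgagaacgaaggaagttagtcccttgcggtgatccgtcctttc
ATP5F1C, chr10:7787927-7788176, plus strand: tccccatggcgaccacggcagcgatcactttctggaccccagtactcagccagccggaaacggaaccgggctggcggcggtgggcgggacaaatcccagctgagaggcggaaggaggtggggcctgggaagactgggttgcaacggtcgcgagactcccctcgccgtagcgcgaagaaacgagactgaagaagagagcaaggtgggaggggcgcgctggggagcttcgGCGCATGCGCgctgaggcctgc
SDHD, chr11:112086623-112086853, plus strand: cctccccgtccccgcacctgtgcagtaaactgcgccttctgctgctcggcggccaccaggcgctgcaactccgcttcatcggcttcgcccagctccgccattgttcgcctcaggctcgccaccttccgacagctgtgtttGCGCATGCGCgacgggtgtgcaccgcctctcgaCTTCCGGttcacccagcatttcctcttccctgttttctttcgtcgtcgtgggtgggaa
In ATP5F1C and SDHD the NRF1 match is palindromic and was found on both strands, with its first base at -22 and -110 from the RefSeq start. SDHD also holds an ETS match at -77. The NDUFS4 window holds neither motif in these letters.

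RefSeq windows from 250 bases before to 50 after the start were matched for 71 of the 89 members, and 4 motifs were searched on both strands. The NRF1 letters were in 22 of the 71 windows (31.0%) and in 7.52% of all 35116 windows. The ETS letters were in 20 (28.2%, against 10.3%), the YY1 letters AAGATGGCG in 8 (11.3%, against 1.75%) and the ERR letters TCAAGGTCA in 1 (1.41%, against 0.353%), which was SDHD. The NRF1, ETS or YY1 letters were in 40 of the 71 windows, and the others held none of these. The 35116 windows were not matched to the members by base composition or kind of gene. Matched letters describe the window and are not a site of binding. Among the 27 windows of subunits that were lower in treated H460 the NRF1 letters were in 10, and among the 38 of tested subunits without a call they were also in 10. For the ETS letters the counts were 8 and 12.

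The level of a member is given in FPKM, read counts scaled by listed gene length and library total. For most members the listed length is that of all annotated exons together, such as 10908 bases for ATP5F1A and 2238 for ATP5F1B. Levels therefore compare only roughly between genes. Changes are differences of log2(FPKM + 1), written with their standard error (SE), and understate the change of members with low levels. The test was limma, fitted to every gene that averaged 0.1 FPKM or more in the libraries of the fit, with Benjamini-Hochberg adjustment over all of these genes. Under this filter 81 members were tested in H460 and 82 in A549, in the comparison of the lines and between the controls. COX4I2, COX7B2, COX8C, ATP5MGL and ATP5MF-PTCD1 fell below it with at most 5 reads in a library, COX6A2 and NDUFC2-KCTD14 had no read in any library, and COX6B2 fell below it in H460 alone.

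Libraries of 1 group differed from each other in how much subunit mRNA they held, most of all in treated H460. Summed over all members, the H460 control libraries held 3937, 3924 and 3599 FPKM, and the ISP-I libraries 1924, 1687 and 3479 FPKM. ISP-I libraries 1 and 2 lay at 0.504 and 0.442 of the control mean, library 3 at 0.911. Against the mean of the 3 ISP-I libraries, 68 of 70 members that averaged 1 FPKM or more were higher in library 3, with a median of 0.59 on the log2 scale, while the median over all genes was -0.04. The genes below the first quartile of length, 2481 bases, were also high in that library, at a median of 0.27, and those above the last quartile, 6912 bases, were low, at -0.17. Members are short, with a median listed length of 2302 bases against 4317 for all genes, and 48 of them lie below that first quartile. Whether gene length had a part in the values of library 3 was not tested, and counts of calls at any fold in H460, over all members, by complex and by list, are given with and without it, as are single subunits where its absence changed a call or moved a called value by over 1.5 times. In A549 the control libraries held 2786, 2530 and 3441 FPKM and the ISP-I libraries 3055, 3284 and 2987 FPKM, so the 2 groups overlapped. Control library 3 of A549 was the highest, with members at a median of 0.22 above the group mean, and control library 2 the lowest, at -0.16.

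**Figure D1:**
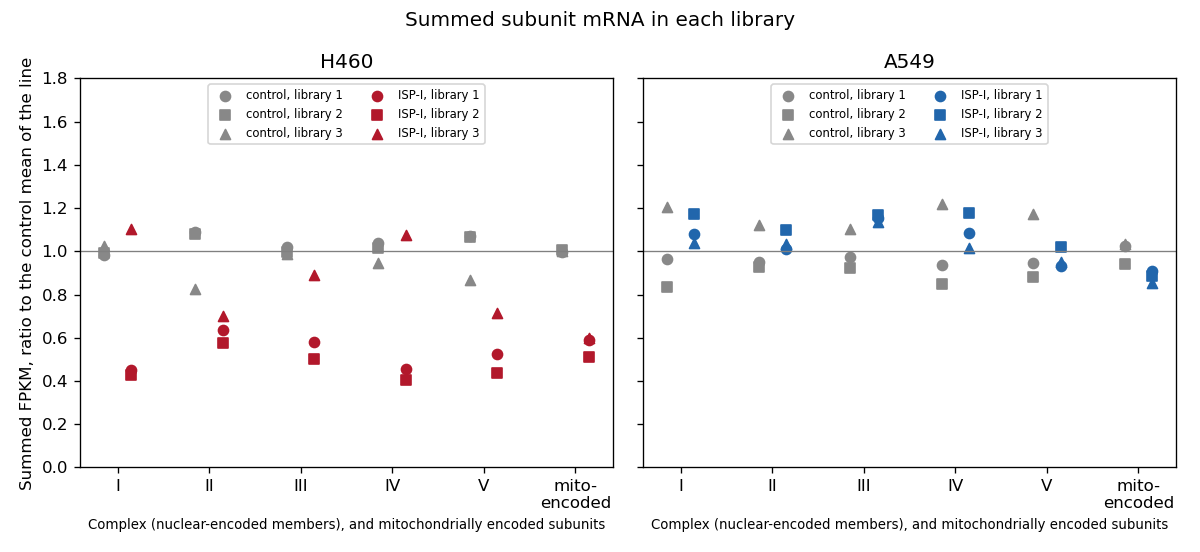
Summed FPKM of the nuclear-encoded members of each complex, and of the 13 mitochondrially encoded subunits, in each library, as a ratio to the control mean of the same line. Circles, squares and triangles are libraries 1, 2 and 3, grey for controls and coloured for ISP-I. In H460, ISP-I library 3 stands at 1.10 for complex I and 1.07 for complex IV, while libraries 1 and 2 lie between 0.403 and 0.454. Complex II and the mitochondrially encoded sum are low in all 3 treated H460 libraries.

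In H460, subunit mRNAs were lower with ISP-I far more often than higher. Of the 81 tested, 34 fell and 1 rose at an adjusted p under 0.05 with any fold, by limma with Benjamini-Hochberg adjustment. The share that fell, 42.0%, was close to that of all 13423 genes tested, of which 41.5% fell, whereas the share that rose, 1.23%, lay below the 27.6% of all genes. At a fold over 2, 10 members fell and none rose, the highest value being 0.32. The falls were 12.3% of those tested, where 15.2% of all genes fell and 10.5% rose. The median change of the members was -0.52, against -0.15 for all genes, and 76 of 81 had a negative value. Treated and control libraries did not overlap for 30 members that were lower and 1 that was higher, where 43.1% and 29.6% of all genes did so. Without ISP-I library 3, 65 members fell, 27 of them over 2-fold, where 43.7% and 16.4% of all genes did, and the median was -0.82. With median-of-ratios scaling, which moves the median of all genes to 0.01, 17 fell, 5 of them over 2-fold, against 32.2% and 10.7% of all genes, and the median was -0.25. Computed over all 12 libraries, the scaling factors were 0.837 to 0.850 in treated H460 and 1.01 to 1.04 in H460 controls.

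The 34 calls were spread over the 5 complexes. In complex I 13 of 36 fell, in complex II all 4, in complex III 3 of 10, in complex IV 4 of 14 tested and in complex V 10 of 17 tested, where 41.5% of all genes fell, so that complexes I, III and IV lay below the share of all genes. The median change was -0.49, -0.64, -0.36, -0.45 and -0.67 in that order. Without ISP-I library 3 the counts were 27, 4, 7, 11 and 16, against 43.7% of all genes, and the medians -0.77, -0.71, -0.51, -0.81 and -0.95. With median-of-ratios scaling the counts were 8, 3, 1, 0 and 5, against 32.2%, and the medians -0.22, -0.35, -0.14, -0.21 and -0.40. Core subunits, as marked in the lists used here, made up 21 of the 81. The lists were drawn up with earlier results of these data known, so the split is a description and no independent test. They hold subunits that carry cofactors or catalytic sites, and partners of these. Among the partners are the core proteins UQCRC1 and UQCRC2, and COX4I1, COX5A and COX5B. The COX genes here encode supernumerary subunits of complex IV, and all of them were called as lower. Of the 21 core subunits, 18 fell, with a median of -0.75, compared with 16 of 60 other subunits, with a median of -0.39. The shares, 85.7% and 26.7%, lay on either side of the 41.5% of all genes. Without ISP-I library 3 the counts were 20 and 45, 95.2% and 75%, both above the 43.7% of all genes, with medians of -0.93 and -0.78. With median-of-ratios scaling they were 11 and 6, 52.4% and 10% against 32.2%, with medians of -0.49 and -0.16. In library 3, members averaging 1 FPKM or more exceeded the treated mean by log2 medians of 0.33 for core subunits and 0.66 for others. At any fold, under every pseudocount, filter, scaling, tool and left-out library tried, 11 members stayed called as lower, among them NDUFS1, NDUFS8, NDUFV1, NDUFA8, SDHB, SDHD, CYC1, ATP5F1A, ATP5F1B and ATP5F1C. The share of all genes that stayed called in this way was not computed, so the count has no background beside it.

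**Figure D2:**
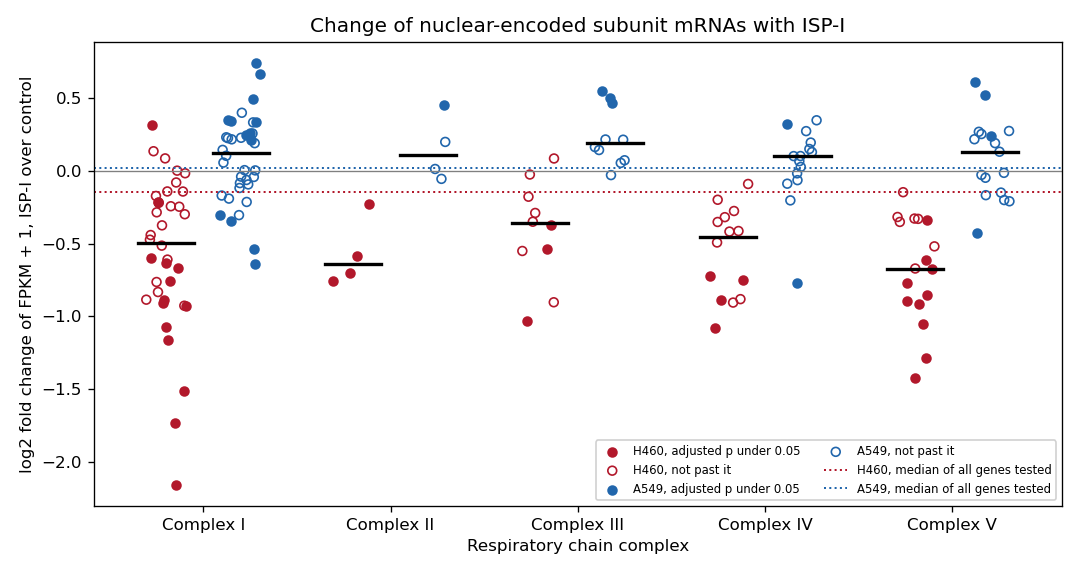
Change of each tested subunit with ISP-I, as the log2 fold change of FPKM + 1, by complex, in H460 (red) and A549 (blue). Filled points passed an adjusted p under 0.05, bars are the median of the complex and dotted lines the median of all genes tested in that line. In H460 the medians of the 5 complexes lie between -0.67 and -0.36, below the -0.15 of all genes. In A549 they lie between 0.10 and 0.19, next to 0.02.

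In complex I, NDUFV1 (chr11:67605653-67612554, plus strand, hg38 as the files list it), which binds NADH and the flavin, was at 39.8, 43.98 and 37.7 FPKM in controls and at 10.3, 9.90 and 14.7 FPKM with ISP-I. It changed by -1.73 (SE 0.159, adjusted p = 2.27e-05 by limma), with no overlap. Of its listed exon bases, 11.98% are shared with exons of other genes, among them its divergent transcript NDUFV1-DT.

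NDUFS1, NDUFS3 and NDUFS8, other core subunits of complex I, had smaller changes. NDUFS1, the large iron-sulfur subunit at the entry of electrons, went from 14.3 ± 1.16 to 8.87 ± 1.01 FPKM (mean ± SD, n = 3), a change of -0.64 that passed the test. NDUFS3 went from 13.4 ± 1.49 to 7.74 ± 2.57 FPKM (-0.75) and NDUFS8, an iron-sulfur subunit, from 14.9 ± 1.42 to 7.52 ± 1.75 FPKM (-0.91), and both fell. With median-of-ratios scaling NDUFS3 did not pass, at -0.49. Of the exon bases of NDUFS1 and NDUFS3, 11.59% and 18.08% are shared with other annotated genes. NDUFS7 and NDUFV2, which also bind iron-sulfur clusters, did not pass, with changes of -0.25 and -0.02 at control levels of 0.554 and 0.639 FPKM. With limma voom on recovered reads the changes were -0.61 and 0.26, and neither passed. Of their exon bases, 51.45% and 28.44% are shared with other annotated genes, so that their listed levels are uncertain. Without ISP-I library 3 NDUFS7 passed, at -0.33. Of the accessory subunits, which surround the core, NDUFA8 went from 129.0, 126.4 and 120.5 FPKM to 46.3, 40.7 and 90.1 FPKM, a change of -1.16 (SE 0.267, adjusted p = 0.00436 by limma). NDUFB7, of the distal membrane arm, went from 87.4, 97.7 and 78.5 FPKM to 20.2, 17.8 and 73.8 FPKM, a change of -1.51 (SE 0.457, adjusted p = 0.0166). The treated libraries of both lay below the controls, with library 3 closest to them. The call of NDUFB7 was lost without ISP-I library 1, at -1.24. NDUFB1 also fell over 2-fold, by 1.07 on the log2 scale, but its treated libraries at 2.25, 2.63 and 10.3 FPKM overlapped the controls at 8.32, 9.72 and 11.3 FPKM. Its call was lost when any library other than ISP-I library 3 was left out, at -1.17 to -0.74, and without that library the change was -1.64. NDUFB4, at -0.93, did not pass, and without that library it passed, at -1.49. Among complex I members that averaged 5 FPKM or more, NDUFS4 had the highest change, 0.09, and did not pass. NDUFA11 was the only member that rose in H460, from 0.814 ± 0.218 to 1.26 ± 0.129 FPKM, and a call at that level rests on 16 to 102 reads a library. No member rose without control library 1 or without ISP-I library 3.

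All 4 subunits of complex II, succinate dehydrogenase, fell in H460, and for each the treated libraries lay below the controls. SDHB, the iron-sulfur subunit, was at 56.2, 51.6 and 42.8 FPKM in controls and at 29.2, 27.6 and 34.7 FPKM with ISP-I, a change of -0.70 (SE 0.145, adjusted p = 0.0026 by limma). The membrane anchor SDHC went from 98.8 ± 16.1 to 65.2 ± 5.25 FPKM (-0.58). With median-of-ratios scaling or with limma voom SDHC did not pass, at -0.29 in each. Its partner SDHD (chr11:112086824-112120016, plus strand) went from 9.19, 7.88 and 6.52 FPKM to 3.97, 3.27 and 5.68 FPKM, a change of -0.75 (SE 0.186, adjusted p = 0.0064). SDHA, the flavin subunit, was listed at 0.367 FPKM in controls and 0.166 FPKM with ISP-I, from 21 to 50 reads a library. Of its exon bases, 21.7% are shared with another annotated gene and 4 annotated pseudogenes are named after it, so that its listed level is uncertain. Complex II was the complex in which library 3 stood least apart, with ratios to the control mean of 0.636, 0.575 and 0.700.

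In complex III, CYC1, the cytochrome c1 subunit that hands electrons to cytochrome c, fell over 2-fold. It was at 91.9, 94.3 and 89.4 FPKM in controls and at 43.8, 32.1 and 62.1 FPKM with ISP-I, a change of -1.03 (SE 0.215, adjusted p = 0.0026 by limma). The core proteins UQCRC1 and UQCRC2 fell by 0.54 and 0.37 on the log2 scale. The first call was lost without control library 2 or 3 or ISP-I library 1, at -0.53 to -0.50, and the second without any control library or ISP-I library 1, at -0.43 to -0.33. With median-of-ratios scaling neither UQCRC1 nor UQCRC2 passed, at -0.25 and -0.08, and limma voom gave the same rounded values without a call. UQCRFS1, the Rieske iron-sulfur protein, was at 48.7, 44.6 and 50.2 FPKM in controls and at 29.2, 22.1 and 52.0 FPKM with ISP-I and did not pass (adjusted p = 0.0956), with library 3 above all controls. Without that library it passed, at -0.88. UQCRQ had the highest value of the complex, 0.09. UQCRHL, a gene like UQCRH that lacks introns, was at 2.14 FPKM in controls and 1.58 FPKM with ISP-I, with a change of -0.35 that did not pass, and without library 3 it passed, at -0.65. In A549 its change was 0.07 and did not pass.

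In complex IV the calls were COX4I1, COX5A, COX5B and COX7A2L, the last of which is known as a factor of supercomplex assembly. COX5B was at 75.1, 77.8 and 64.8 FPKM in controls and at 23.3, 21.9 and 74.6 FPKM with ISP-I, a change of -1.08 (SE 0.406, adjusted p = 0.0413 by limma). Library 3 was within the control range, and the SD of the treated group, 30.1 FPKM, was near its mean of 39.9 FPKM. Without library 3 its change was -1.64. COX4I1 went from 62.5 ± 2.82 to 36.05 ± 18.6 FPKM (-0.89) and COX5A from 77.4 ± 2.56 to 49.7 ± 23.1 FPKM (-0.72). For COX4I1, COX5A and COX5B the call was lost when any library other than ISP-I library 3 was left out, at -0.91 to -0.67, -0.74 to -0.50 and -1.16 to -0.78. With median-of-ratios scaling limma called no complex IV subunit in H460. Of the tissue isoforms, which replace the common form in muscle, lung or testis, COX7A1 was at 1.53 FPKM in controls and 1.34 FPKM with ISP-I and did not pass. COX7A2 was at 32.8, 33.7 and 23.7 FPKM in controls and at 20.1, 16.3 and 39.9 FPKM with ISP-I, the highest change of the complex among members of at least 5 FPKM, at -0.32, and the lowest in A549, at -0.09. It passed in neither line, and without library 3 it passed in H460, at -0.68. NDUFA4L2, a relative of NDUFA4, was at 0.664 and 0.454 FPKM in H460 and passed in neither line, with changes of -0.20 in both. COX4I2, COX6A2, COX7B2 and COX8C were listed at or near 0 in both lines.

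In complex V, the 3 large subunits of the catalytic F1 part fell together. ATP5F1B, the beta subunit and the member with the highest listed level, was at 1039, 1062 and 798 FPKM in controls and at 534, 424 and 603 FPKM with ISP-I, a change of -0.90 (SE 0.209, adjusted p = 0.00473 by limma). ATP5F1A, the alpha subunit, went from 45.8, 43.5 and 39.7 FPKM to 25.2, 21.1 and 23.6 FPKM, a change of -0.86 (SE 0.12, adjusted p = 0.000273). ATP5F1C (chr10:7788147-7807815, plus strand), the gamma subunit of the rotating stalk, went from 76.8, 76.6 and 61.9 FPKM to 23.4, 19.5 and 38.2 FPKM, a change of -1.42 (SE 0.23, adjusted p = 0.000619). None of the 3 overlapped between groups, and ATP5F1A in library 3 lay between the other treated libraries. The delta subunit ATP5F1D fell by 0.77 on the log2 scale, while the epsilon subunit ATP5F1E had a change of -0.52 and did not pass. With median-of-ratios scaling ATP5F1D did not pass, at -0.49. Of the 3 genes for the membrane ring, ATP5MC3 and ATP5MC1 fell over 2-fold, by 1.29 and 1.05, and ATP5MC2 by 0.61. The call of ATP5MC1 was lost without ISP-I library 1, at -0.91. ATP5PD, of the peripheral stalk, had a change of -0.33 and did not pass. ATP5F1E and ATP5PD passed without ISP-I library 3, at -1.19 and -0.87.

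**Figure D3:**
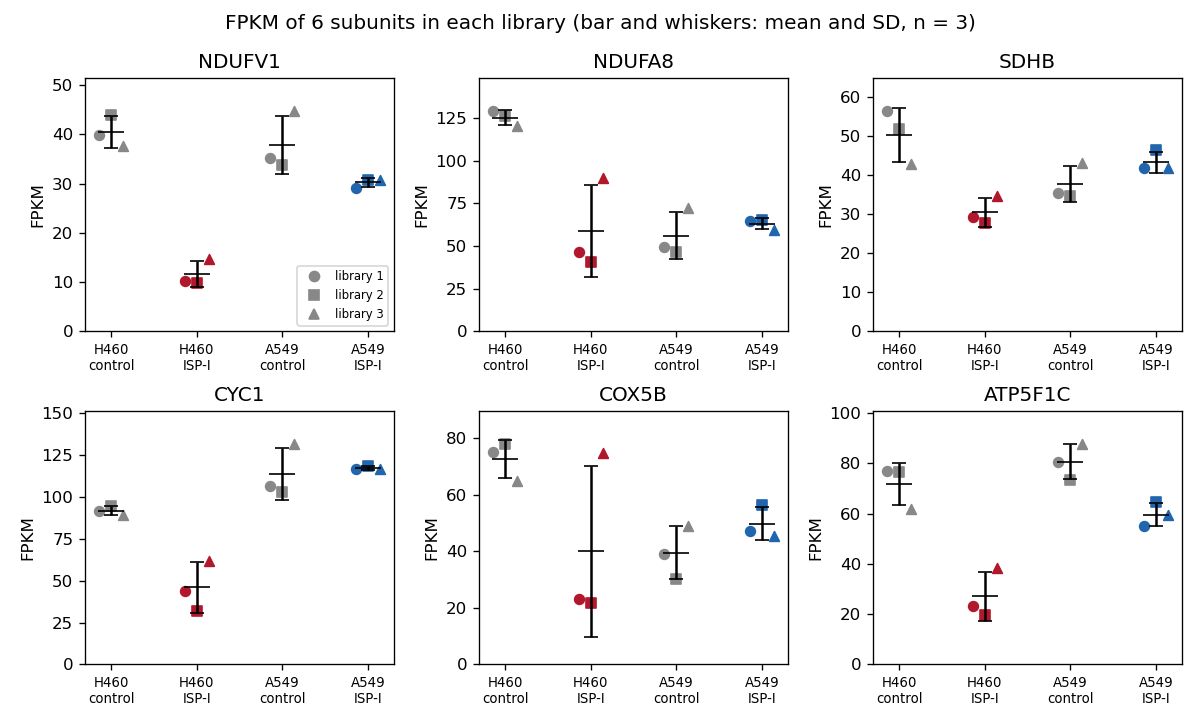
FPKM of 6 subunits in each library of the 4 groups, with the mean and SD of 3 libraries. The treated H460 libraries lie below the controls for NDUFV1, NDUFA8, SDHB, CYC1 and ATP5F1C, while for COX5B library 3 is at 74.6 FPKM and the other treated libraries at 23.3 and 21.9. In A549, NDUFV1 and ATP5F1C are lower in the treated libraries.

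In A549 the changes were smaller and went both ways. Of 82 members tested, 17 rose and 6 fell at an adjusted p under 0.05, 20.7% and 7.32%, while 30.5% and 27.0% of all 13705 genes did. None passed a fold over 2 in either direction, the values running from -0.77 to 0.74, where 4.2% of all genes rose and 3.51% fell. In that class limma voom on the recovered reads called 1 higher and 3 lower, and the share of all genes under voom was not computed. The median change was 0.13 against 0.02 for all genes. The groups stayed apart for 19 members that were higher and 8 that were lower, where 34.8% and 30.7% of all genes did so. The counts depended on the control libraries. Without control library 3, 43 members rose and 9 fell, against 34.4% and 32.3% of all genes, and without control library 2, 11 rose and 11 fell, against 28.8% and 24.7%, with a median of 0.02. At any fold, under every pseudocount, filter, scaling, tool and left-out library tried, NDUFS4, NDUFA6, NDUFA13, NDUFV3, SDHD, UQCR10 and UQCR11 stayed called as higher, and COX7A1 as lower. As in H460, the share of all genes that stayed called was not computed.

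The highest change in A549 was that of NDUFS4 (chr5:53560633-53683338, plus strand), an accessory subunit of complex I at the NADH end. It was at 33.2, 27.4 and 29.7 FPKM in controls and at 49.9, 52.6 and 49.8 FPKM with ISP-I, a change of 0.74 (SE 0.0809, adjusted p = 0.000123 by limma), with no overlap. NDUFA6 rose from 42.8 ± 2.95 to 60.9 ± 4.89 FPKM (0.50). UQCRFS1 rose from 101.2, 95.7 and 106.7 FPKM to 141.8, 142.7 and 136.8 FPKM, a change of 0.47 (SE 0.0685, adjusted p = 0.000575). ATP5F1E rose from 13.1 ± 2.69 to 20.4 ± 1.53 FPKM (0.61) and COX5A from 95.3 ± 13.2 to 118.9 ± 8.998 FPKM (0.32), although the COX5A groups overlapped and its call was lost without control library 1 or 2 or ISP-I library 1 or 2, at 0.27 to 0.31. NDUFA13, UQCR10 and UQCR11 rose at control levels of 1.06, 1.53 and 3.57 FPKM. Of their exon bases, 20.97%, 24.51% and 11% are shared with other annotated genes, as are 23.22% of those of ATP5F1E. COX7A1, the isoform of contractile muscle, fell from 4.34 ± 0.239 to 2.15 ± 0.421 FPKM, a change of -0.77, on 9 to 39 reads a library.

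Of the 34 subunits that fell in H460, 3 also fell in A549, among them NDUFV1 and ATP5F1C. NDUFV1 went from 37.8 ± 5.95 to 30.3 ± 0.968 FPKM (-0.30, adjusted p = 0.0375), a call lost without any of the ISP-I libraries, at -0.32 to -0.28. ATP5F1C went from 80.6 ± 6.99 to 59.6 ± 4.67 FPKM (-0.43, adjusted p = 0.00374 by limma). For both the fall was larger in H460, by a tested difference of -1.43 and -0.997. No member rose in both lines. SDHD and COX5A fell in H460 and rose in A549, and NDUFA11 rose in H460 and fell in A549, from 0.859 ± 0.113 to 0.282 ± 0.0633 FPKM. SDHD rose from 4.81, 5.61 and 4.93 FPKM to 7.11, 7.61 and 7.40 FPKM in A549, a change of 0.45 (SE 0.0797, adjusted p = 0.00155), with no overlap in either line. Of the exon bases of SDHD and NDUFA11, 11.4% and 12.1% are shared with other annotated genes, and 6 annotated pseudogenes are named after SDHD.

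The change with ISP-I was compared between the lines in a fit of all 12 libraries, as the change in H460 minus that in A549. Of 82 members, 40 had a lower change in H460 and 2 a higher one, 48.8% and 2.44%, where 34.7% and 18.6% of all 13953 genes did. Past a difference of 1 on the log2 scale, 14 were lower and none higher, the highest value being 0.85. The 14 were 17.1% of those tested, where 10.1% of all genes were lower and 5.93% higher. The median difference was -0.69 against -0.16 for all genes. Without ISP-I library 3 of H460, 66 were lower, 37 of them past 1, where 37.9% and 12.1% of all genes were. With median-of-ratios scaling 12 were lower, 3 of them past 1, against 23.6% and 5.93% of all genes. The 2 with a higher change in H460 were NDUFA11 and COX7A1, the second of which was lost in 8 of 12 fits with a library left out, at 0.53 to 0.72. Of the core subunits, marked with earlier results of these data known, 18 of 21 had a lower change in H460. Of the others 22 of 61 did, 85.7% and 36.1% against 34.7% of all genes. With median-of-ratios scaling the counts were 8 and 4, 38.1% and 6.56% against 23.6% of all genes. Without ISP-I library 3 of H460 they were 19 and 47, 90.5% and 77.0%, both above the 37.9% of all genes. At any fold, under every pseudocount, filter, scaling, tool and left-out library tried, NDUFS3, NDUFV1, NDUFA8, SDHB, SDHD, CYC1 and ATP5F1A stayed called. Here too the share of all genes that stayed called was not computed.

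The control cells of the lines were compared in the same fit, as H460 minus A549. Of 82 members, 25 were higher and 6 lower in H460, 30.5% and 7.32%, where 27.1% and 30.4% of all genes were. Past 2-fold, ATP5MC3, NDUFA8 and ATP5F1D were higher in H460, by 1.35, 1.17 and 1.13 on the log2 scale, and COX7A1 and UQCRFS1 lower, at -1.12 and -1.06. Across all genes 5.47% were higher and 8.5% lower past 2-fold. NDUFA8 was at 125.3 ± 4.36 FPKM in H460 controls and 56.2 ± 13.9 FPKM in A549 controls, and with ISP-I at 59.0 ± 27.1 and 63.2 ± 3.20 FPKM. ATP5F1B was at 966 ± 146 FPKM in H460 controls and 490 ± 82.8 FPKM in A549 controls, a difference of 0.98 (SE 0.169, adjusted p = 0.000303 by limma), and with ISP-I at 520 ± 90.2 and 438 ± 12.7 FPKM. All 4 complex II subunits were higher in H460 controls. The control groups did not overlap for 30 members that were higher and 10 that were lower in H460, where 30.6% and 32.7% of all genes did so. The lines share these controls with the comparisons of treatment, so that a high control value enters both.

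Listed levels differed widely among the subunits, and most of the low ones belonged to genes with overlapping annotation. Of the 89 members, 34 had a mean under 5 FPKM over the 12 libraries, 16 a mean of 5 to 20 FPKM and 39 a mean of at least 20 FPKM. In the GENCODE v44 annotation, 40 members share at least 5% of their exon bases with exons of other genes. Their median level was 2.52 FPKM, against 36.3 FPKM for the other 49. Of the 34 members under 5 FPKM 25 were overlapped, of the 16 in the middle 10, and of the 39 highest 5. The counting mode and the strand setting are not given in the sources used here, and the part of overlap in the low levels was not tested. In H460, 11 of 36 tested members with overlap fell and 23 of 45 without it, 30.6% and 51.1% against 41.5% of all genes. In A549 9 of 37 and 8 of 45 rose, 24.3% and 17.8% against 30.5% of all genes. These counts by overlap were taken with all libraries only. Pseudogenes named after the member are annotated for 28 of the 39 members with the highest levels, 6 of the 16 in the middle and 15 of the 34 under 5 FPKM, and reads of near-identical copies may have been split or lost in counting.

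**Figure D4:**
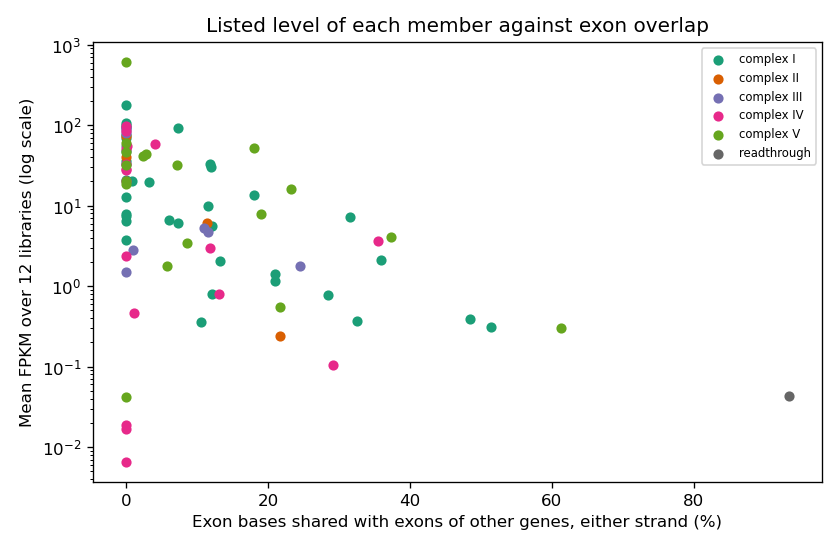
Mean FPKM of each member over the 12 libraries (log scale) against the share of its exon bases that lie in exons of other genes on either strand, in percent, coloured by complex. Members without a read are not drawn. Members at or above 20 FPKM stand mostly at or near an overlap of 0, while members with large overlap have levels under 5 FPKM in the main.

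Genes that work with the subunits were taken from lists. The mitochondrially encoded subunits, 13 mRNAs of complexes I, III, IV and V, made up 17.2% of all FPKM in H460 controls and 10.4% with ISP-I. Their summed FPKM in the 3 treated H460 libraries was at 0.510 to 0.599 of the control mean, with library 3 among the others, and in A549 at 0.855 to 0.907. In H460 8 of 13 fell and none rose, 61.5% against 41.5% of all genes, with a median of -0.79. The count lower was 8 without ISP-I library 3, against 43.7% of all genes. With median-of-ratios scaling it was 5, against 32.2%, with a median of -0.50. With limma voom it was 7, and 1 was called higher, with no share of all genes computed. In A549 4 fell and 1 rose, 30.8% and 7.69% against 27.0% and 30.5% of all genes. Without control library 3, 5 fell and 4 rose, against 32.3% and 34.4% of all genes. MT-CO2, a catalytic subunit of complex IV, fell by 1.64 in H460 and by 0.67 in A549 on the log2 scale. MT-ND5 fell by 1.39 and 0.97, and MT-ND6 by 1.68 and 1.07. MT-ND6 is encoded on the opposite strand to the other 12 mRNAs, and without a known strand setting its reads cannot be told apart from those of overlapping transcripts. MT-ND3 rose in A549 by 1.28, from 1119 ± 151 to 2706 ± 298 FPKM, and had a change of 0.14 in H460 with an SD of 1379.5 FPKM among treated libraries. MT-ND1 and MT-ND2 passed in neither line, with changes of 0.13 and 0.00 in H460.

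Of 55 tested assembly factors, which build the complexes but are not part of them, 34 fell and 6 rose in H460, 61.8% and 10.9% against 41.5% and 27.6% of all genes, and 24 rose and 4 fell in A549, 43.6% and 7.27% against 30.5% and 27.0%. In H460 38 fell without ISP-I library 3, against 43.7% of all genes, and 23 with median-of-ratios scaling, against 32.2%. With limma voom 21 of 53 fell, with no share of all genes computed. SDHAF3, a factor of complex II, fell by 1.57 in H460, from 21.9 ± 3.0 to 6.71 ± 1.1 FPKM, and had a change of -0.09 in A549. COA5, a factor of complex IV, fell by 1.54 in H460. ATPAF1, a factor of complex V, fell by 1.07 in H460 and by 0.27 in A549, where the call was lost in 1 of 6 fits with a library left out, at -0.22. COA1 fell by 1.04 in H460 and had a change of -0.16 in A549 that did not pass. COA7 rose in both lines, with H460 means of 20.5 and 67.7 FPKM and A549 means of 12.9 and 29.5 FPKM, control first. COX19, a copper-handling factor of complex IV, rose by 0.96 in H460 and 1.26 in A549.

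Of 16 genes for regulators of mitochondrial biogenesis, 6 fell and 6 rose in H460, 37.5% each against 41.5% and 27.6% of all genes, and 2 fell and 6 rose in A549, 12.5% and 37.5% against 27.0% and 30.5%. Without ISP-I library 3 of H460, 7 fell, against 43.7% of all genes, and 7 rose, with no share of all genes computed. NRF1, the factor of the motif shown in the promoters, fell from 8.21 ± 1.1 to 3.56 ± 0.21 FPKM in H460 (-1.01, adjusted p = 0.00013 by limma) and had a change of -0.19 in A549 that did not pass. The GABP subunit genes GABPA and GABPB1, whose protein binds the ETS motif, rose in H460 by 0.81 and 1.12, and GABPB1 rose in A549 by 0.64. ESRRA fell by 0.51 in H460, a call lost without control library 1 or 2, and rose by 0.57 in A549. HCFC1, a co-regulator, fell in both lines, by 2.51 and 0.73. POLRMT, the mitochondrial RNA polymerase, fell by 1.57 and 0.36, and the protease LONP1 fell by 1.36 in H460. PPRC1, a coactivator, rose by 1.05 and 0.43, TFB2M, a mitochondrial transcription factor, by 0.70 and 0.71, and HIF1A by 1.499 in H460. PPARGC1A, the best known coactivator of the pathway, was at or under 0.414 FPKM in every group mean. YY1 passed in neither line, with changes of -0.12 and 0.07. TFAM, which packages mitochondrial DNA and helps to transcribe it, had a change of 0.34 in H460 that did not pass and, without ISP-I library 3, passed at 0.39. It rose by 0.37 in A549, a call lost in 3 of 6 fits with a library left out, at 0.34 to 0.39. TFB1M fell by 0.52 in H460 and had a change of -0.03 in A549. PPARGC1B, a relative of PPARGC1A, rose by 0.43 in A549 and had a change of -0.18 in H460. CHCHD2 had changes of -0.28 and 0.36 and passed in neither line, while without ISP-I library 3 it passed in H460, at -0.63.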

How the data were processed

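RNA-seq was done on 12 libraries of H460 and A549 cells, 3 in each of 4 groups. The authors used FastQC to filter reads, HISAT2 to align them to hg38 and HTSeq 0.9.1 to count, and deposited the values as FPKM. Annotation version, strand setting and counting mode are not given in the sources used here. Columns were matched to a line and a treatment by name. Nothing ties the running numbers in their names to the replicate numbers of the labels, so libraries are numbered by their place in the table. Whole reads were recovered from the deposited FPKM with the listed lengths: within a tolerance of 0.01, 100% of values were whole. Then 4 broken lines were left out, and 19973 genes remained, 1924 of them without reads.

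limma 3.58.1 in R 4.3.3 was fitted with a mean-variance trend on log2(FPKM + 1), within each line, and over all 12 libraries for the difference between lines and for the controls. Genes had a mean of at least 0.1 FPKM in the fit. A call needed a Benjamini-Hochberg adjusted p under 0.05, at any fold or at a fold of FPKM + 1 over 2. The fold of 2 is that of the study, while the adjustment and the class at any fold were chosen here. limma was tested on counts simulated from H460 control means, with a single fixed spread and no library that differs from its group. That test does not cover the spread seen among the treated H460 libraries. Tables and figures were made with Python 3.11.15, pandas 2.3.3 and matplotlib 3.10.9. Alternatives were a pseudocount of 0.1, a filter at 1 FPKM, no filter, median-of-ratios scaling, quantile normalization, limma voom on recovered reads (at least 10 in 3 libraries), a single fit of all libraries, limma treat against 2-fold, an adjusted p under 0.01, and each library left out. Members were named in the text where they were the highest or lowest of a complex with a mean of at least 5 FPKM, passed 2-fold in a line or in the difference, or were marked as core subunits or tissue isoforms. The other genes named are the extremes of their lists and the regulators, plus NDUFA11, NDUFA6, NDUFA13, NDUFV3, UQCR10, UQCR11, UQCRQ and COX7A2L, named after their values were seen. Values of 1 member that the rule names are not reported here, although it is in the counts. Exon overlap was computed from GENCODE v44, whose exon length equals the listed length for 81 of 89 members. Members and lists were chosen with earlier results of these data known.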

Additional observations from a re-analysis of the deposited data

Results flagged for a closer look

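The ISP-I change was called lower in H460 than in A549 for 40 members and higher for 2. These were 48.8% and 2.44% of those tested, where 34.7% and 18.6% of all genes were called. Of these members, 14 are listed here, by the tested difference of the changes in the fit of all 12 libraries (limma, Benjamini-Hochberg adjusted p under 0.05, differences on the log2 scale as H460 minus A549). In complex I the difference was -1.43 for NDUFV1 (adjusted p = 9.02e-05), -1.35 for NDUFA8 (0.00545), -1.66 for NDUFB7 (0.0277), -1.33 for NDUFB4 (0.0409) and -1.15 for NDUFB10 (0.0294). NDUFA11 had the opposite direction, with 0.85 (0.000122). In complex II it was -1.21 for SDHD (0.000492), and in complex III -1.09 for CYC1 (0.00359) and -1.02 for UQCRFS1 (0.0147). In complex IV it was -1.43 for COX5B (0.031) and -1.04 for COX5A (0.0166), and in complex V -1.26 for ATP5MC3 (0.0206), -1.18 for ATP5MC1 (0.0225) and -1.03 for ATP5F1D (0.00763). SDHD, COX5A and NDUFA11 are here because they were called in opposite directions in the lines, and the others because the difference passed 1. For SDHD and COX5A the difference passed 1 as well. Since NDUFA11 did not pass 1, the list is not the set of 14 past 1 counted above. Under median-of-ratios scaling NDUFV1, NDUFA8, SDHD, CYC1 and NDUFA11 stayed called. The calls of NDUFB4, NDUFB7, NDUFB10 and COX5B were lost in 8 to 10 of 12 fits with a library left out, at -1.38 to -1.02, -1.66 to -1.30, -1.16 to -0.85 and -1.46 to -1.12. That of ATP5MC1 was lost in 4, at -1.13 to -0.99, and that of ATP5MC3 in 2, at -1.13 and -1.08. Single libraries were not tested as outliers, since the groups hold 3.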

How the results depend on the processing

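No paired analysis was possible because nothing ties the numbers in the column names to the replicate numbers in the labels. Among the alternatives, shares of all genes were computed only where they are printed above. The other counts here have no background beside them, so they do not show a shift particular to the subunits. In H460 the count of subunits lower at any fold, 34, was 21 without a filter, 17 with median-of-ratios scaling and 22 with limma voom, and 22 to 65 with a library left out. The count higher, 1, was 0 without a filter, and 0 to 1 with a library left out. The count lower over 2-fold, 10, was 5 without a filter, 5 with median-of-ratios scaling, 5 with voom, 2 with limma treat, 6 at an adjusted p under 0.01, and 5 to 27 with a library left out. In A549 the count higher, 17, was 9 in the single fit of all libraries and 11 to 43 with a library left out, and the count lower, 6, was 10 with quantile normalization and 5 to 11. Over 2-fold it was 2 lower and 1 higher with a pseudocount of 0.1, and 3 and 1 with voom. For the difference between lines, 40 lower became 12 with median-of-ratios scaling, 13 with voom and 24 to 66 with a library left out, and 2 higher became 1 with a pseudocount of 0.1, with a mean of at least 1 FPKM, without a filter and with voom, and 1 to 2 with a library left out. The 14 past 1 became 8 without a filter, 3 with median-of-ratios scaling, 6 with voom, 0 with treat, 6 at an adjusted p under 0.01, and 5 to 37, and 1 was higher past 1 with a pseudocount of 0.1, quantile normalization or voom. Between controls, 25 higher ranged from 18 to 33 and 6 lower from 4 to 11 with a library left out. Over 2-fold, 3 higher became 5 with a pseudocount of 0.1 or median-of-ratios scaling, 7 with voom, 0 with treat and 3 to 6, and 2 lower became 4 with a pseudocount of 0.1 or voom, 1 with quantile normalization, 0 with treat and 1 to 2. The medians of complexes I to V in H460, -0.49, -0.64, -0.36, -0.45 and -0.67, were -0.22, -0.35, -0.14, -0.21 and -0.40 with median-of-ratios scaling, and with a library left out ranged from -0.77 to -0.33, -0.76 to -0.56, -0.51 to -0.28, -0.81 to -0.28 and -0.95 to -0.49. In A549 the medians of complexes IV and V, 0.10 and 0.13, were -0.013 and -0.024 without control library 2, and ranged up to 0.15 and 0.17. ATP5MC3 in A549, at -0.03, was -0.15 without control library 2 and 0.16 without control library 3. The cause of these shifts was not tested. Of 2453 values of named genes under alternatives, 2165 kept direction and side of the threshold, 226 no longer passed and 61 newly passed. With 3 libraries a group, each left-out library leaves 2. FPKM holds a scaling by total reads, and members at low levels rest on few reads.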

Other observations

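Of 16 tested genes for electron carriers and their partners, 8 fell and 1 rose in H460, 50% and 6.25% against 41.5% and 27.6% of all genes. In A549 2 fell and 5 rose, 12.5% and 31.25% against 27.0% and 30.5%, so that the shares that fell in H460 and rose in A549 lay near those of all genes. In H460 9 fell without ISP-I library 3, against 43.7% of all genes, and 5 with median-of-ratios scaling, against 32.2%. With limma voom 5 fell, with no share of all genes computed. HCCS, which attaches heme to cytochromes c and c1, rose in H460 by 1.10 (adjusted p = 0.0011 by limma) and in A549 by 0.62 on the log2 scale. COQ3 and COQ7, enzymes of ubiquinone synthesis, fell in both lines, COQ3 by 1.22 and 0.52 and COQ7 by 0.34 and 0.36 on the log2 scale, the H460 call of COQ7 being lost without control library 2 or 3 or ISP-I library 1, at -0.33 to -0.32. COQ5, a further enzyme of that pathway, rose in A549 by 0.70. ATP5IF1, the inhibitor of ATP synthase, fell by 1.53 in H460, where the treated libraries had an SD of 10.9 FPKM around a mean of 11.99 FPKM and the call was lost without control library 3 or ISP-I library 1, at -1.48 and -1.20.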
